A study of Mus musculus with 16 samples.

Results

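The comparison follows CpG methylation over 34506 fixed 500-bp regions of chromosomes 1 to 19 between mouse oocytes of 40–45 µm and of 60–65 µm in diameter. A region entered when each of the 4 reduced representation bisulphite sequencing (RRBS) libraries, A and B of each size class, held at least 5 CpG cytosines in it with at least 5 calls each. These were 34506 of the 49484 regions that met this in at least 1 of the 6 RRBS libraries of the series. The choice used coverage alone, not the level of methylation.

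All oocytes were wild-type and not treated, from C57BL/6 mice by the labels and C57BL/6Babr by the study’s methods. They were picked by hand from digested pre-pubertal ovaries, washed to remove somatic cells, measured and pooled by diameter, so each library is a pool of many oocytes. The 60–65 µm oocytes came from older pups than the 40–45 µm oocytes, so that diameter and age cannot be told apart. The series further holds 2 RRBS libraries of 50–55 µm oocytes, 1 post-bisulphite adapter tagging (PBAT) library of 60–65 µm oocytes, which covers the whole genome, and RNA-seq libraries in duplicate of the same size classes.

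Germ cell DNA is stripped of most of its methylation before birth, and the oocyte sets a new pattern only after birth, while it grows in the follicle. The methyltransferase DNMT3A with its cofactor DNMT3L does this, mainly along transcribed gene bodies, where H3K36 carries methyl groups, whereas H3K4 methylation at active promoters and CpG islands repels the complex. The germline differentially methylated regions of maternally imprinted genes gain their methylation in this phase and keep it in the embryo. RRBS reads the ends of short fragments cut by MspI at CCGG, so it samples CpG-rich sequence. Of the regions measured, 34505 held a CCGG.

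Stretches of 300 bases from 4 regions show what was read, one for each kind of result described here. They are the reference sequence of GRCm38 from RefSeq, on the plus strand and 5′ to 3′, with the CpGs that had at least 5 calls in all 4 libraries in capitals and all other bases in lower case. The Gm13090 stretch comes from the region with the largest gain among those within 1 kb of a gene start and with at least 10 cytosines in each library (chr4:151088615-151088914). It lies upstream of this gene and does not hold the start itself. The Dvl2 stretch comes from the largest gain among gene bodies under the same limit (chr11:70009069-70009368), and the Myb stretch from the largest fall that was called (chr10:21127501-21127800). The Ppia stretch comes from a region within 1 kb of the start of this housekeeping gene. It is shown as CpG-dense sequence that had no methylation to speak of in either size class (chr11:6416034-6416333).

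Gm13090: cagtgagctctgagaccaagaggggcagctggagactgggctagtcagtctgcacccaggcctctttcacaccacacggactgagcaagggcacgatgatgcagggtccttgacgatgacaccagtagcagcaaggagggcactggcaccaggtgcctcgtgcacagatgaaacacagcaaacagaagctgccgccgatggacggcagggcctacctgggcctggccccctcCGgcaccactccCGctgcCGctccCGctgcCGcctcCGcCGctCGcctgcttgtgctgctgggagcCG

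Dvl2: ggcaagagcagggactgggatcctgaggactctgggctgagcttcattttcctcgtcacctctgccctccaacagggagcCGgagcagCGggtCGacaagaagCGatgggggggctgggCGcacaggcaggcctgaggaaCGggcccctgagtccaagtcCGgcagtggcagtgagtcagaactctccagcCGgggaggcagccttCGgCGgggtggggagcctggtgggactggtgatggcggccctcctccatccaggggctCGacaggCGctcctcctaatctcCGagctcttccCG

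Myb: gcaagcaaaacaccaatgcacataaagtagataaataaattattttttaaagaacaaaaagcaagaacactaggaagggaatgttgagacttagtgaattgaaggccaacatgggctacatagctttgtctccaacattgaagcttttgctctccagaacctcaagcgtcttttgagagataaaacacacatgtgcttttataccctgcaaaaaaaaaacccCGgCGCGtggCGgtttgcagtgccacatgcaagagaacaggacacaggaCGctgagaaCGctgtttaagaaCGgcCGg

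Ppia: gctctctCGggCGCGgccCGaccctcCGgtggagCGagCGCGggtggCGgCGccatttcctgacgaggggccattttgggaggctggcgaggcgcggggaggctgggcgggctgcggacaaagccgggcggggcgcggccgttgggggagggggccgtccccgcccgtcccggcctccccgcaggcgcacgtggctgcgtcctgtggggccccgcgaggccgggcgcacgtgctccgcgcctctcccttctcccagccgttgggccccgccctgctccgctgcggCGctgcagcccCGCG

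In the Gm13090 stretch 9 of 16 CpGs were measured, and the mean of their cytosines was 15.9% in 40–45 µm A, 0% in 40–45 µm B, 90.8% in 60–65 µm A and 78.8% in 60–65 µm B. In the Dvl2 stretch 14 of 16 CpGs were measured, with means of 3.60% and 3.36% at 40–45 µm and 81.0% and 84.3% at 60–65 µm. The means of both stretches did not overlap between the classes. Single cytosines of the Dvl2 stretch did not pass 12.5% at 40–45 µm and did not lie under 50% at 60–65 µm, whereas those of the Gm13090 stretch reached 57.1% in 40–45 µm A and went down to 37.5% in 60–65 µm B. In the Ppia stretch 13 of 43 CpGs were measured, with means of 0.122% and 0.565% at 40–45 µm and 0.292% and 0% at 60–65 µm.

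The 4 libraries held 30000113 to 57319823 calls at CpG cytosines, and the median depth of a cytosine that passed the minimum was 20 to 29 calls. Over the 34506 regions the replicates correlated with r = 0.915 at 40–45 µm and r = 0.970 at 60–65 µm, and 189 and 345 regions differed by at least 20 points between A and B. Oocyte markers such as Zp2 and Gdf9 summed to 2968 to 4187 RPKM in the RNA libraries of the same classes, against 3.35 to 7.43 for 11 granulosa cell markers, 0.503 to 1.33 for 5 stroma and theca markers and 0.0246 to 0.0846 for the 2 blood markers in the table. Of the granulosa markers 9 stayed under 1 RPKM in all 4 libraries, and their sum was higher at 60–65 µm; whether this bears on any value given here was not tested.

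Most regions were nearly unmethylated at 40–45 µm, and a minority of them was methylated at 60–65 µm. The mean over the 34506 regions was 2.42% in 40–45 µm A and 2.41% in 40–45 µm B, against 7.60% in 60–65 µm A and 7.87% in 60–65 µm B. The difference between the class means, called gain from here on and given in percentage points, was 5.32 and lay between 5.18 and 5.46 over the pairings of a 60–65 µm with a 40–45 µm library, far more than the differences between replicates. With 2 libraries against 2, an exact permutation test cannot go below p = 0.33, so class means were not tested. On single chromosomes the gain ranged from 3.06 to 7.69. It depended on the regions taken, and was 1.72 over the 16368 regions with at least 10 cytosines in each library. A pool cannot tell a region methylated in part of the oocytes from one methylated on part of the molecules of each.

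The median gain was only 0.191, because most regions did not move. Of the 32413 regions under 5% at 40–45 µm, 28062 were still under 5% at 60–65 µm, 1679 lay between 5% and 25%, 2496 between 25% and 75%, and 176 at 75% or more. Partial methylation was thus the common state of regions that had gained. The 98 regions at 75% or more already at 40–45 µm, mostly repeats, had means of 80.5% and 83.5% at 40–45 µm and 80.5% and 80.6% at 60–65 µm.

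**Figure D1:**
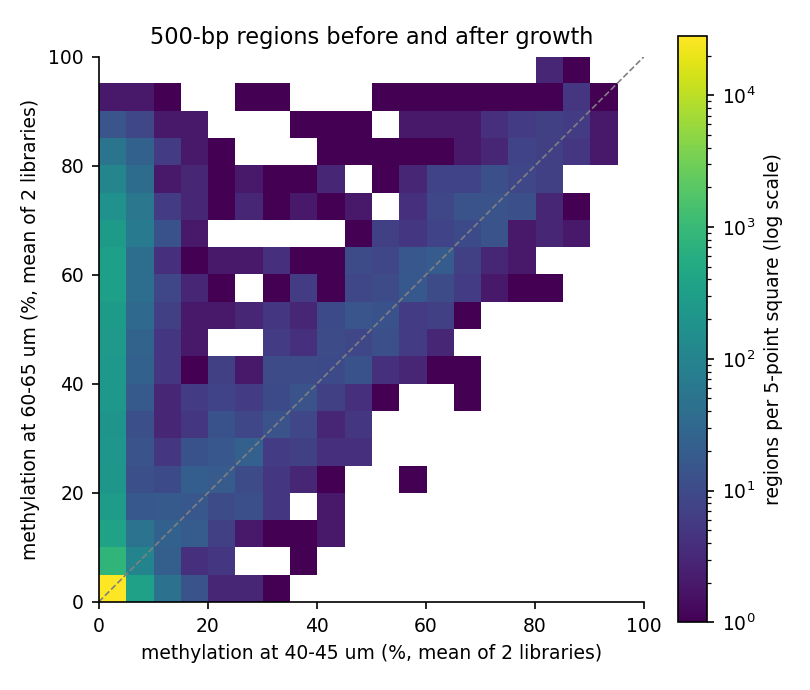
Methylation of the 34506 regions at 40–45 µm (x axis) and 60–65 µm (y axis), each in percent as the mean of 2 libraries; the colour gives the number of regions per square of 5 by 5 points on a log scale, and the dashed line marks equal levels. Most regions sit in the lowest corner, a column of regions under 5% at 40–45 µm reaches high levels at 60–65 µm, and regions above 25% at 40–45 µm lie near the line.

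Both 60–65 µm libraries lay above both 40–45 µm libraries in 9506 regions, both lay below in 3591, and the classes overlapped in 21409. Each 60–65 µm library was at least 20 points above each 40–45 µm library in 3076 regions (8.91% of all), and at least 50 points above in 1345. The reverse by 10 points was seen in 11 regions (0.0319%) and by 20 points in 0. By edgeR's quasi-likelihood test on methylated and unmethylated calls, 3942 regions gained methylation and 5 lost it at an adjusted p under 0.05 among 5527 regions with a mean of 5% to 95% over the 4 libraries. The gained regions were 71.3% of those tested and 11.4% of all regions measured, and the lost ones 0.0905% of those tested. The minimum of 5% lets in mainly regions that became methylated, since 3709 of the 5527 lay under 5% at 40–45 µm and 139 at 60–65 µm, so the share of all regions is the one to read; without the minimum 2724 regions gained and 12 lost among 33803, and those 12 hold none of the 5. The count of gained regions needs both 60–65 µm libraries: without 60–65 µm A 1585 were called and without 60–65 µm B 0, where 2911 passed an unadjusted p of 0.05, and with 1 library in a class the lone library is taken to vary as the other class does.

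Gene bodies held most of the gain. Gene-body regions, those inside a gene but more than 1 kb from its start, were 10581 in number and averaged 2.47% in 40–45 µm A, 2.35% in 40–45 µm B, 17.1% in 60–65 µm A and 17.7% in 60–65 µm B. Regions within 1 kb of a gene start, 18616 in number, averaged 0.799%, 0.823%, 1.30% and 1.46% in the same order. The gain was 15 in gene bodies and 0.568 at gene starts, with pairings of 14.7 to 15.3 and of 0.477 to 0.660. Gene bodies were the higher of the 2 already at 40–45 µm, by more than the spread of the libraries. On each of the 19 chromosomes the gain was 10.4 to 20.4 in gene bodies and 0.225 to 1.10 at gene starts.

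Gains of at least 20 points in every pairing made up 25.6% of gene-body regions (2707) and 0.924% of gene-start regions (172), beside 8.91% over all regions. By the test 3345 gene-body regions gained and 1 lost methylation, and 282 gene-start regions gained and 1 lost. The 621 regions within 5 kb past a gene end averaged 2.81% and 2.70% at 40–45 µm and 6.34% and 6.72% at 60–65 µm, a gain of 3.78, and 61 of them were called. Intergenic regions, 4688 in number, averaged 8.72% and 8.81% at 40–45 µm and 11.3% in both 60–65 µm libraries, a gain of 2.52, and 254 were called. Most of their methylation at 40–45 µm lay in the 921 regions that were at least 50% repeat-masked, which averaged 33.1% and 33.5% at 40–45 µm and 36.3% and 36.5% at 60–65 µm. The other 3767 intergenic regions averaged 2.76% and 2.77%, then 5.19% and 5.11%, and at 40–45 µm were still above gene bodies under 50% repeat-masked (1.95% and 1.80%).

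**Figure D2:**
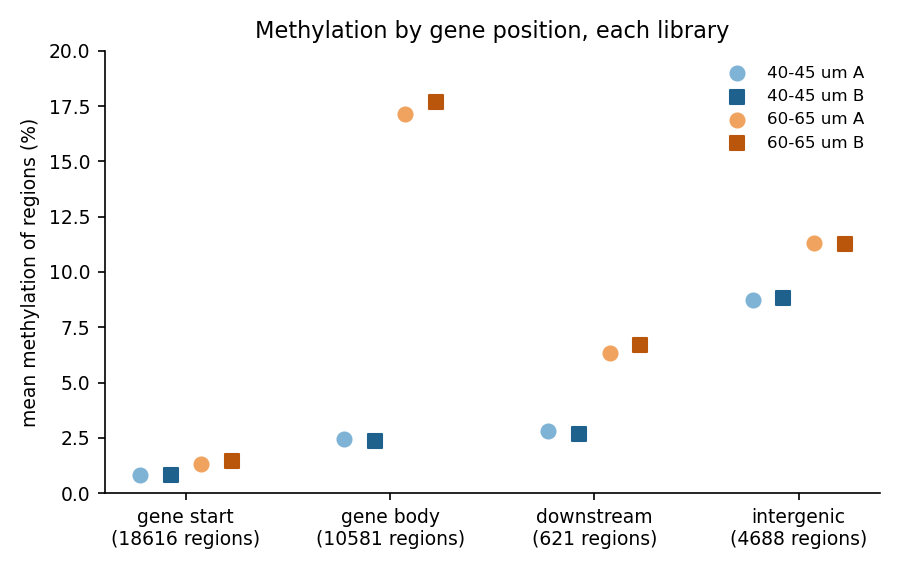
Mean methylation (percent, y axis) of regions by position relative to genes (x axis, with the number of regions), 1 point for each of the 4 RRBS libraries. Gene bodies went from 2.41% to 17.4% as class means, gene starts stayed under 1.5%, and intergenic regions were highest at 40–45 µm.

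The levels depend on the gene models. With GENCODE models and every transcript start counted as a gene start, the gain was 2.24 at starts and 16.5 in bodies, both higher than above. Within the gene bodies used here, 3761 regions within 1 kb of such a GENCODE start had a gain of 10.6, against 19.7 for 3906 regions on coding exons, 14.6 for 2468 in introns and 13.8 for 432 on noncoding exons.

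Along the gene body the gain was smallest near the start. It was 5.07 at 1 to 5 kb from the start (2520 regions), 15.7 at 5 to 20 kb (3059), 19.5 at 20 to 100 kb (3304) and 19.7 beyond 100 kb (1698). The last 2 classes lay close together, with pairings of 19.2 to 19.8 and of 19.2 to 20.3, and their difference was not tested. The share of regions with at least 20 points was 8.29%, 26.2%, 33.7% and 34.4% in the same order, beside 25.6% for all gene bodies.

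Transcription of the gene at 40–45 µm went with the gain of its body. Regions in genes under 0.1 RPKM (4121) averaged 2.1% and 2.04% at 40–45 µm and 4.4% and 4.12% at 60–65 µm, a gain of 2.19. At 0.1 to 1 RPKM (2447 regions) the gain was 17.0, at 1 to 10 RPKM (3402) 27.5, and at 10 RPKM or more (611) 23.7. The 1 to 10 RPKM class averaged 3.02% and 2.84% at 40–45 µm and 29.9% and 31.0% at 60–65 µm, and the class above it 2.18%, 1.98%, 25.5% and 26.1%. The order therefore ended at 1 to 10 RPKM: the highest class had a smaller gain than the one below it in every pairing, 23.3 to 24.1 against 26.9 to 28.2. Across the 10581 gene-body regions gain and RPKM had a Spearman correlation of 0.412, a description over regions that share libraries and genes and are not replicates.

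Distance and transcription held side by side. In genes under 0.1 RPKM the gain was 1.01 at 1 to 5 kb and 4.59 beyond 100 kb, and in genes of 1 to 10 RPKM it was 10.2 and 32.2. Even the first kilobases of genes of 1 to 10 RPKM, then, had a larger gain than the far ends of genes under 0.1 RPKM. Regions of at least 20 points were 3.23%, 27.7%, 47.6% and 45.7% of the 4 expression classes from low to high, beside 25.6% for all gene bodies.

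**Figure D3:**
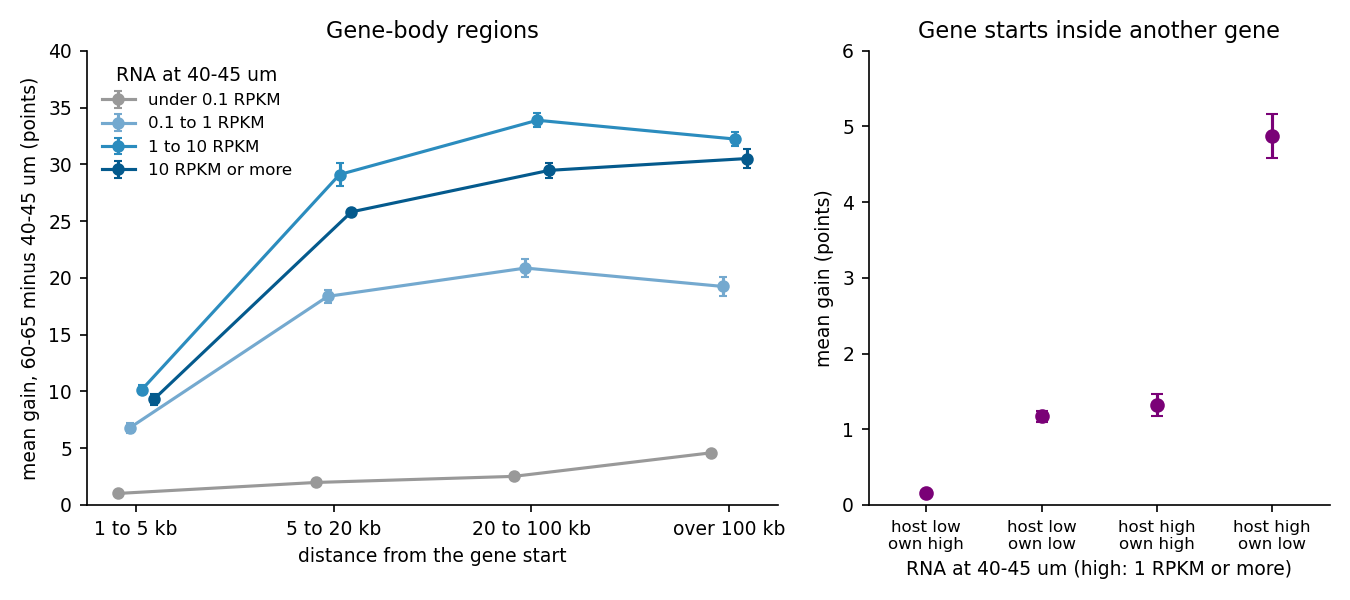
Left, mean gain of gene-body regions (points, y axis) by distance from the gene start (x axis) in 4 classes of RNA at 40–45 µm; right, mean gain at gene starts that lie inside another gene, by RNA of the host and of the gene itself, with 1 RPKM or more as high. Bars span the lowest and highest pairing of libraries; the lines for transcribed genes climb from 6.80 to 10.2 near the start to 18.4 to 33.9 further in, while silent genes stay under 5, and starts of low genes in high hosts have the highest gain on the right, 4.87.

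Many body regions of transcribed genes had little methylation at 60–65 µm. Of the 4013 gene-body regions in genes of 1 RPKM or more, 1706 (42.5%) were still under 10% at 60–65 µm and 1292 (32.2%) were over 50%. In genes under 0.1 RPKM 92.4% were under 10% and 2.23% over 50%. CpG density went with this split. In genes of 1 RPKM or more the gain was 36.8 where the 500 bp held up to 10 CpGs, 35.4 at 11 to 20, 23.3 at 21 to 30 and 5.42 above 30. In genes under 1 RPKM it was 11.8, 11, 5.54 and 1.69 over the same classes. CpG density and nearness to a transcript start are themselves related, and their shares in these differences were not tested.

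Within the bodies of genes of 1 RPKM or more, coding exons had the highest gain, 37.9 (1343 regions), followed by noncoding exons at 30.2 (146) and introns at 28.3 (859). The pairings of noncoding exons, 29.2 to 31.1, and of introns, 27.5 to 29.1, lay next to each other, and those of coding exons, 36.9 to 38.8, lay above both. Regions within 1 kb of a GENCODE transcript start had 17.2 (1661). Among the 1235 genes with at least 3 body regions, all regions gained 20 points in 100 genes, some in 420 and none in 715. Mixed bodies were the most common kind among genes of 1 to 10 RPKM, where 69 genes had all, 220 some and 91 none.

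Among regions with at least 10 cytosines in each library and under 50% repeat-masked, the 8 gene-body regions with the largest gains went from at most 8.26% in any 40–45 µm library to at least 72.6% in any 60–65 µm library. In Dvl2, a transducer of Wnt signals (2.21 and 2.48 RPKM at 40–45 µm), the coding-exon region shown above averaged 3.48% ± 0.167 (SD, n = 2) at 40–45 µm and 82.7% ± 2.38 at 60–65 µm, with an adjusted p of 0.00129 by edgeR. It stood at 42.2% and 41.0% in the 50–55 µm libraries and 74.9% in PBAT. Dyrk1b, a protein kinase (coding exon, chr7:28185501-28186000), had 6.55%, 0%, 84.6% and 79.8% in 40–45 µm A and B and 60–65 µm A and B. The 60–65 µm libraries of both genes lay close to each other.

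Polr2f, a subunit of RNA polymerases, had 2.01% and 3.38% at 40–45 µm and 82.0% and 76.8% at 60–65 µm at its 3′ end (chr15:79151501-79152000), and its RNA fell by 0.56 on the log2 scale (SE 0.117, adjusted p = 0.00765 by limma). Aqr, a helicase of the spliceosome, had 5.48%, 4.94%, 83.9% and 76.8% in a coding exon (chr2:114130501-114131000). Ctnnd1, which encodes p120 catenin, had 7.03%, 7.69%, 74.2% and 90.4% (chr2:84624001-84624500), a wider spread between the 60–65 µm libraries. The RNA of Dvl2, Dyrk1b, Aqr and Ctnnd1 passed no test, with log2 differences of -0.34, 0.18, -0.05 and 0.42. Gramd2 (2.09%, 0.0877%, 72.6% and 84.3%) stands out among the 8 as a gene of hardly any RNA, 0.134 and 0.123 RPKM at 40–45 µm. AW555464, and Gm20388, a predicted model that runs over many other genes, were the remaining ones, and GENCODE places the Polr2f and AW555464 regions within 1 kb of another transcript start.

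The starts used here are the 5′ ends of gene models, while the study describes other, upstream starts as common in oocytes. By these models gene starts kept their low level whether the gene was transcribed or not. Their gain was 0.850 in genes under 0.1 RPKM (5085 regions), 0.805 at 0.1 to 1 RPKM (3550), 0.361 at 1 to 10 RPKM (7833) and 0.266 at 10 RPKM or more (2148), and over the 18616 regions its Spearman correlation with RPKM was -0.03. In the 3794 genes with both a start and a body region the body gained more than the start in 2946 (77.6%). A gain of 20 points was reached by the body in 1376 of these genes, by the start in 54 and by both in 35.

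Starts that lie inside another gene stood somewhat apart. These 2338 regions averaged 0.911% and 0.946% at 40–45 µm and 2.71% and 2.89% at 60–65 µm, a gain of 1.87, against 0.382 for the 16278 others. Gains of 20 points were seen in 72 of them (3.08%) and in 100 of the others (0.614%), beside 0.924% over all gene-start regions. Where the host gene had 1 RPKM or more and the gene itself less, 530 regions averaged 0.995% and 1.14%, then 5.72% and 6.15%, a gain of 4.87, and 58 were called. Where both had 1 RPKM or more the gain was 1.32 (518 regions), where neither had 1.17 (885), and where only the gene itself had 0.156 (391). Starts of low genes inside transcribed hosts thus lay above the 3 other kinds in every pairing, with 4.58 to 5.16 against at most 1.47. Their median gain was 0.167 and their mean ranged from -0.00946 to 31.3 over single chromosomes, so a small share of the regions carried it. By host alone there was no steady order: the gain was 0.379 in hosts under 0.1 RPKM, 1.73 at 0.1 to 1 RPKM, 3.51 at 1 to 10 RPKM and 0.911 at 10 RPKM or more, and the Spearman correlation with the RPKM of the host was 0.04 over 2324 regions.

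Among regions with at least 10 cytosines in each library and under 50% repeat-masked, the 8 gene starts with the largest gains, all called, reached class means of 61.6% to 85.9% at 60–65 µm from 0.593% to 7.27% at 40–45 µm. The Gm13090 region (chr4:151088501-151089000), whose centre lies at -819.5 bp from the start, had 14.5% and 0% at 40–45 µm, 60.0% and 63.3% at 50–55 µm, 91.6% and 80.1% at 60–65 µm and 92.8% in PBAT. This predicted gene was listed at 0 RPKM in all 4 RNA libraries, and its start lies inside Camta1, which had 0.791 RPKM. Eif4ebp3, which encodes a protein that binds the cap factor eIF4E, also starts inside another gene, Ankhd1 (1.31 RPKM), and had 2.70%, 0%, 62.6% and 65.1%.

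The other 6 of these starts do not lie inside another gene. Akap12, a scaffold of protein kinase A (chr10:4266501-4267000), had 1.83% and 6.24% at 40–45 µm and 67.5% and 74.5% at 60–65 µm just downstream of its start. It was among the more highly transcribed genes, at 44.8 and 59.7 RPKM at 40–45 µm and 31.8 and 32.5 at 60–65 µm, a fall of 0.74 on the log2 scale (SE 0.174, adjusted p = 0.0120 by limma). Htr1d, a serotonin receptor (chr4:136424501-136425000, centred 1226.5 bp downstream of the start), had 0.728%, 0.659%, 61.4% and 62.1%, with 50 to 66 cytosines per library, and its RNA rose from 0.225 and 0.185 to 0.808 and 0.718 RPKM, by 1.46 on the log2 scale (SE 0.141, adjusted p = 0.000486 by limma). The Gm13090 and Htr1d regions lie at the edge of the 1 kb window and outside one of 500 bp.

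Pde4b, a cAMP phosphodiesterase (0.372%, 1.16%, 57.1% and 77.4%), and Syt2, a synaptotagmin (2.84%, 1.90%, 57.3% and 72.6%), differed by more between the 60–65 µm libraries, and both had under 0.5 RPKM in every library. Grasp, a scaffold of glutamate receptors (chr15:101224501-101225000), had 3.0%, 1.28%, 60.3% and 66.5%, and its RNA rose by 0.60 on the log2 scale (adjusted p = 0.0215 by limma). Grasp had the lowest mean of the 8 at 50–55 µm, from 18.2% and 4.83%. BC026585 had 1.07%, 0.115%, 53.1% and 70.1%, and its RNA fell by 0.52 (adjusted p = 0.0218). The calls of the 8 starts, like those of the 8 bodies, do not hold without 60–65 µm B.

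**Figure D4:**
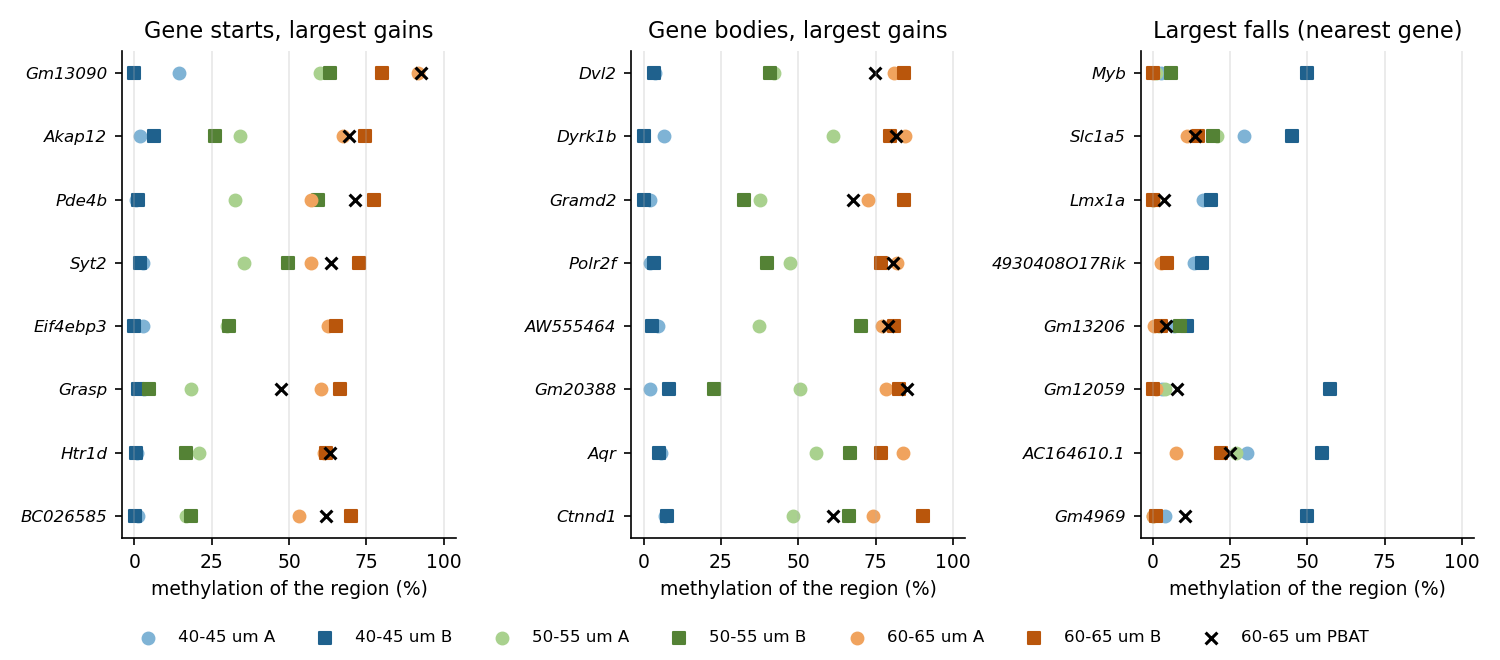
Methylation in percent (x axis) of the regions with the largest gains at gene starts and in gene bodies, among those with at least 10 cytosines in each library, and of the 8 falls named, by the gene at or nearest to the region, 1 symbol per library; PBAT is the separate whole-genome library. In the left and middle panels the 50–55 µm values lie between the other classes, except at Pde4b, where 50–55 µm B is above 60–65 µm A, and in the right panel 3 of the 8 falls (Myb, Gm12059 and Gm4969) rest on a single high 40–45 µm library.

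The 4 largest gains outside gene models reached 80.6% to 89.8% at 60–65 µm. The nearest genes were Gm10097, Ccnj, Nhsl1 and Gm5611. The region 19779 bp from Ccnj, a cyclin gene (chr19:40811001-40811500), had 11.6% and 2.41% at 40–45 µm and 89.2% and 90.4% at 60–65 µm, and the RNA of Ccnj rose from 2.69 and 2.54 to 5.32 and 4.32 RPKM (log2 difference 0.79, SE 0.128, adjusted p = 0.00242 by limma). GENCODE models place the Ccnj and Nhsl1 regions inside a gene body and the Gm10097 region at a gene start. Only the Gm5611 region is intergenic by both sets of models, and even this region overlaps a GENCODE exon. That exon belongs to a type of gene left out of the GENCODE models used here.

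Loss of methylation was rare, and little methylation was there to lose. Both 40–45 µm libraries were at 10% or more in 952 regions, and 748 regions had a mean of 25% or more, of which 601 were at least 50% repeat-masked. Of these 748, both 60–65 µm libraries lay below both 40–45 µm libraries in 103 and above in 183. The 11 regions that fell by at least 10 points in every pairing averaged 56.0% at 40–45 µm and 37.4% at 60–65 µm, and 8 of them were at least 50% repeat-masked. PBAT lay nearer to the 60–65 µm than to the 40–45 µm RRBS mean in 6 of the 11, against 2536 of the 2556 regions with a gain of 20 points and a PBAT value.

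The 5 regions called as lost lie in Myb and nearest to Slc1a5, Lmx1a, 4930408O17Rik and Gm13206. The Myb region (chr10:21127501-21128000), in an intron of this transcription factor gene, had 2.64% in 40–45 µm A, 50.0% in 40–45 µm B, 0% in 60–65 µm A and 0.113% in 60–65 µm B, from 328 to 612 calls per library. In 40–45 µm B the 8 cytosines of the stretch shown ranged from 0% to 100%, whereas none passed 11.1% in 40–45 µm A. The value of a single library thus carried this call, and Gm12059 (2.98% and 57.1% at 40–45 µm) and Gm4969 (3.82% and 50.0%), not called, had the same pattern.

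The other falls were seen in both 40–45 µm libraries. The region 29760 bp from Lmx1a, a homeobox factor gene (chr1:167878501-167879000), had 16.3% and 18.9%, then 0% and 0%, with 0% in 50–55 µm A and 3.65% in PBAT (adjusted p = 0.00926 by edgeR). The region 9346 bp from Slc1a5, a glutamine transporter gene (chr7:16771501-16772000), had 29.6% and 44.9%, then 10.9% and 14.4%, with 20.7% and 19.6% at 50–55 µm and 13.6% in PBAT (adjusted p = 0.0363), and 79% of it was repeat-masked. Its call was lost with a replicate block (adjusted p = 0.112 by edgeR). The regions at 4930408O17Rik (13.3% and 16.0%, then 2.50% and 4.44%) and Gm13206 (6.75% and 11%, then 0.303% and 2.47%) had adjusted p-values of 0.0478 and 0.0440. The first was not called with the block (0.115) or by limma (0.0557), nor the second in the fit of 6 libraries (0.0547). Without the minimum of 5%, none of the 5 was called, with adjusted p-values of 0.111 to 0.703 by edgeR, and none was called when either 60–65 µm library was left out. The count of losses is unstable: it was 127 without 40–45 µm A, 15 without 40–45 µm B, 2 without 60–65 µm A and 0 without 60–65 µm B, where 5 passed an unadjusted p of 0.05.

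The 50–55 µm libraries and PBAT, which took no part in the choice or the test, stood between and beside the 2 classes. The 2022 regions with a gain of 20 points and values in both 50–55 µm libraries averaged 3.5% and 3.22% at 40–45 µm, 26.7% and 28.2% at 50–55 µm and 54.1% and 56.5% at 60–65 µm. The 50–55 µm mean lay between the other means in 2013 of them, and the median share of the change already made at 50–55 µm was 44.7%. The PBAT mean of the 2556 regions with a value was 60.7%, against 55.2% by RRBS at 60–65 µm and 3.35% at 40–45 µm.

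Imprinted genes showed both extremes at their starts. Of 35 genes with maternal germline methylation nearby, 23 had a measured start, and a start region was called in 10, against 1.96% of all 12118 genes with a measured start (238). Airn, the noncoding RNA that silences Igf2r, had 1.93%, 0%, 70.8% and 74.9% in 40–45 µm A and B and 60–65 µm A and B. Plagl1, a zinc finger gene, had 2.36%, 6.27%, 57.4% and 64.3%. Both start from a few percent and were the highest of the list at 60–65 µm.

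Peg3, a zinc finger gene, had 4.89%, 2.86%, 59.8% and 47.2%, and Mcts2, a retrogene inside H13, had 2.31%, 0.510%, 51.8% and 55.4%. Sgce and Peg10 share 1 start region, at 11.2%, 6.65%, 50.5% and 44.6%. Zrsr1, a retrogene inside Commd1, had 11.4%, 12.6%, 48.1% and 46.6%, so a part of its level was present at 40–45 µm. Impact had 2.08%, 27.9%, 48.7% and 49.3%, with 40–45 µm libraries that do not match each other. Nap1l5, inside Herc3, had 1.29%, 0.366%, 28.3% and 37.7%. Nnat had 3.30%, 19.9%, 18.7% and 18.8%, which overlap between the classes although the region was called by the test, which sums calls and does not average cytosines.

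The other 13 starts of the list were under 3% at 60–65 µm as class means. They include Igf2r, Herc3, Commd1, Kcnq1 and Trappc9, genes that carry the germline mark of a partner transcript inside their body and not at their own start. Over the whole list, 14 genes had a measured body region and 11 of them a called one, beside 39.4% of all 5521 genes with a measured body (2175). Most of the 11 had 1 to 10 RPKM at 40–45 µm, where the share over all genes was 66.7%. Genes with several body regions had more chances of a called one than the median gene, which had 1. A region inside several genes counts for each of them, so the called genes need not hold separate regions. Kcnq1, a potassium channel gene, had 4.03%, 2.87%, 67.1% and 65.3% over 5 body regions against 0%, 0%, 1.16% and 0% at its start. Gnas, which encodes a G protein subunit, averaged 2.56% at 40–45 µm and 34.4% at 60–65 µm over 13 body regions, of which 9 were called. Mest had 1.29%, 0%, 70.3% and 63.8% in its 1 body region.

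**Figure D5:**
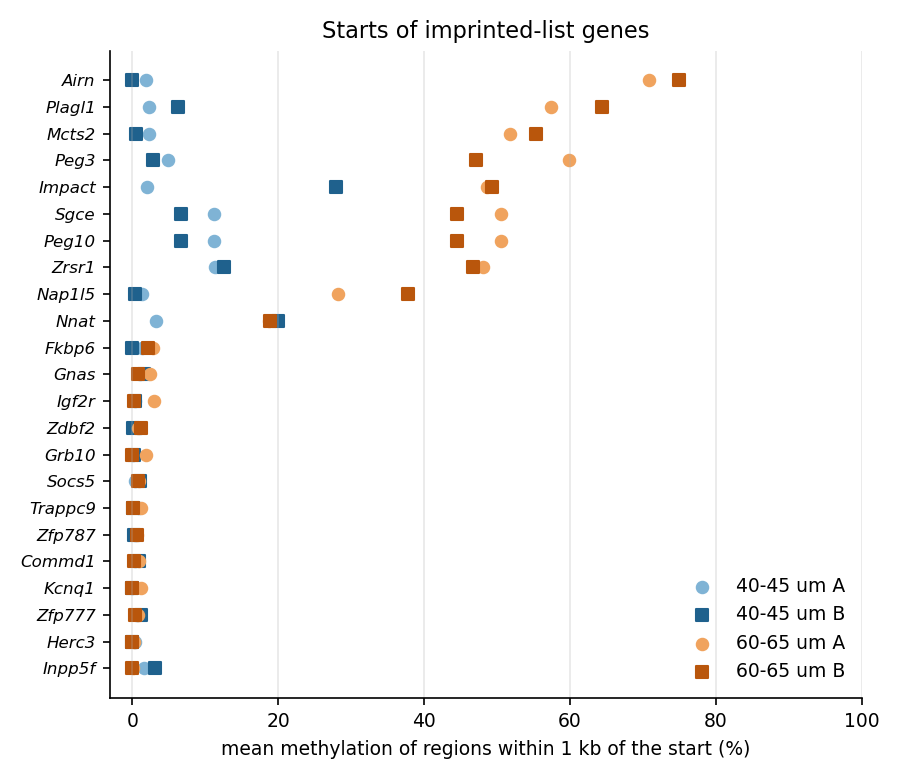
Mean methylation (percent, x axis) of the regions within 1 kb of the start for the 23 genes of the imprinted list with a measured start (rows, ordered by the 60–65 µm mean), 1 symbol for each of the 4 libraries; Sgce and Peg10 share a region. The 10 genes above Fkbp6 have a called region and the other 13 sit under 5% in every library.

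Of 13 enzyme and cofactor genes with a measured start, Dnmt3b (0.283%, 1.00%, 23.1% and 18.2%) and Tet3 (0.754%, 0.246%, 22.6% and 26.6%) had a called start region, beside 1.96% of all genes, and 11 had none. Of 10 with a measured body 6 had a called region, beside 39.4% of all genes: Tet3, Dnmt1, Dnmt3l, Dnmt3a, Kdm1b and Nsd1. All 6 had 1 RPKM or more. The share over all genes was 66.7% at 1 to 10 RPKM and 61.8% at 10 RPKM or more. Of the members without a called body region, Kdm5b, Tet2 and Tet1 had 0.659, 0.747 and 0.0349 RPKM, and Zfp57 had 67.9. Among the members of 1 RPKM or more, then, only Zfp57 had no called body region. Whether their share differs from that over all genes so transcribed was not tested. Dnmt3l, the cofactor of DNMT3A, had 3.54%, 1.08%, 70.6% and 66.4% in its body region, while its RNA rose from 3.65 and 2.70 to 11.3 and 8.25 RPKM (log2 difference 1.53, SE 0.187, adjusted p = 0.000805 by limma). Kdm1b, which removes H3K4 methylation, had 0.298%, 0.813%, 22.5% and 26.4% over its 2 body regions, and its RNA fell by 0.63 (adjusted p = 0.00288).

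In the lists of 36 homeobox and other CpG-rich developmental genes, 16 housekeeping genes and 6 oocyte-expressed genes with a measured start, no start region reached the mean of 5% that the edgeR fit needs, and none was tested, beside 1.96% of all measured starts called; a count of 0 in lists of this length is near that background. Their highest 60–65 µm class means were 2.89%, 2.57% and 1.80%. Beside 39.4% of all genes with a measured body, body regions were called in 2 of 31 developmental genes, Pax6 and Gata4, and in 1 of 3 housekeeping genes, Hsp90ab1. Most of the developmental genes had under 0.1 RPKM, where 9.53% of all genes had a called body region. Pax6 and Gata4 were not among these, at 0.230 and 0.384 RPKM. No developmental gene under 0.1 RPKM had a called body region. At 0.1 to 1 RPKM, the class of Pax6 and Gata4, the share over all genes was 49.5%. Whether the developmental genes differ from other genes of their class was not tested. Of 5 oocyte-expressed genes 3 had a called body region, Lhx8, Kit and Bnc1, and the transcription factor gene Bnc1 reached 63.8% from 4.99%. Of 14 germline genes 2 had a start region tested, and 1 was called, Dpep3, with 12.2%, 12.1%, 38.4% and 39.6%.

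The study's own early and late methylated amplicons lie in genes that it chose on oocytes of these classes, so their counts are no independent evidence of timing. Of the genes with early amplicons, 5 of 5 had a called body region and 0 of 3 a called start, and Atxn1 went from 2.34% to 51.3% over 6 regions. Of those with late amplicons 4 of 4 had a called start region, at 8.93% to 21.1% at 60–65 µm, and 2 of 4 a called body region, Rbm47 and Extl3, at 4.73% and 54.0%. Over all genes a called region was held by 1.96% of starts and 39.4% of bodies.

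Gained regions lay in genes whose RNA rose, fell or passed no test. By limma on log2(RPKM + 0.1), 1983 of 10513 genes rose (18.9%) and 1939 fell (18.4%) from 40–45 µm to 60–65 µm. Of the 1753 genes with a called body region and an RNA test, 399 rose (22.8%) and 188 fell (10.7%). Of the 1002 with a measured body and no called region, 233 rose (23.3%) and 184 fell (18.4%). The share that rose was close to that of genes without a called region and the share that fell was lower; the difference of the shares was not tested. Of the 115 tested genes with a called start, 34 rose (29.6%) and 22 fell (19.1%), against 16.3% and 17.7% of the 7581 without. The RNA counts depend on single libraries: 755 rose and 564 fell without 60–65 µm A, 1296 and 1132 without 40–45 µm B, and 1247 and 1146 without 60–65 µm B.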

How the data were processed

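The authors trimmed RRBS reads with Trim Galore 0.3.5, aligned them to GRCm38 with Bismark 0.14.0, and deposited, for each CpG cytosine and strand, the counts of methylated and unmethylated calls and the percent methylated. PBAT reads were aligned with Bismark too, their duplicates were removed, and calls were extracted with Bismark 0.10.0. Duplicates were not removed from RRBS, where reads of a fragment start at the same base, so depth covers counting error only. The conversion control was not analysed here. For RNA, trimmed with Trim Galore 0.2.8 and aligned with TopHat2 2.0.9, the authors deposited a table for 25965 reference genes, with 1 column (GV oocytes) not used here. The values the authors deposited there are taken as RPKM, since they are not whole numbers and sum to similar totals in each library. The study's methods name Cufflinks, with FPKM summed over the transcripts of a gene, and SeqMonk. Which of them made the table, and the unit of the table, are not given in the sources used here. The classes of expression therefore rest on this reading.

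A region's percentage is the mean over its cytosines, strands apart, from the deposited counts. Positions come from the gene models of the RNA table (24483 genes on chromosomes 1 to 19), in the order gene start (within 1 kb), gene body, downstream (5 kb) and intergenic. A region in several genes takes the highest RPKM.

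The test was edgeR 4.0.16 (R 4.3.3), quasi-likelihood, on calls summed per region, with a mean per library, a level per class, a dispersion without trend and Benjamini-Hochberg adjustment over the regions with a mean of 5% to 95%. A trended dispersion was not run. The tests were checked on simulated data with known answers. RNA was tested with limma 3.58.1 on log2(RPKM + 0.1) after scaling by a trimmed mean (factors 0.962 to 1.04), over the 8 libraries of 4 size classes, keeping genes that reached 0.5 RPKM in 2 or more libraries. Fold changes on this scale understate those of low genes. RNA from one strand and the other was kept apart in the libraries, but how the table treats strand is not given.

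Neither labels nor methods say that A and B came from separate animals, so p-values measure the spread between these libraries. No batch is named. Named genes are the 8 largest called gains at gene starts and in gene bodies that do not overlap between classes, with at least 10 cytosines in each library, under 50% repeat-masked and 1 region a gene, the 8 largest falls (called, then not overlapping), the 4 largest called gains elsewhere, and members of gene lists. The regions and lists were chosen with earlier results of these data known. Alternatives tried were the minima of calls and cytosines, strands summed, calls pooled, shifted regions, repeats left out, no filter, 6 libraries in 1 fit, a replicate block, limma, other gene models and windows, RNA of 60–65 µm, other RNA settings, and leaving out each library. Python 3.11.15 was used for summaries.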

Additional observations from a re-analysis of the deposited data

How the results depend on the processing

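Alternatives were run for the counts of regions and genes, the gains over all regions, by position, by expression and at starts inside another gene, and the named regions, and none of these changed direction. Gains by distance, CpG density and exon or intron, the gene lists and the RNA shares of called genes had none. The count of gained regions, 3942, was 667 with at least 10 cytosines a region and 2624 in a fit of all 6 RRBS libraries, and ranged from 0 to 4297 when a library was left out; the other 8 settings gave 2724 to 4245. The count of lost regions, 5, was 2 with at least 10 calls a cytosine, 0 with at least 10 cytosines (2 at an unadjusted p under 0.05), 10 with regions shifted by 250 bp, 12 without the minimum, 9 with a replicate block, 10 with limma and 21 with limma and no minimum, a setting chosen after seeing the data; leaving out a library gave 0 to 127. Regions 20 points higher were 483 with at least 10 cytosines. Regions 10 points lower, 11, were 7 with at least 10 calls, 0 with at least 10 cytosines, 3 without repeats and 33 to 260 without a library. The mean gain of 5.32 was 4.79 with at least 10 calls, 1.72 with at least 10 cytosines and 4.95 with strands summed. With 500 bp around the start the gain was 12.9 in gene bodies and 2.41 in intergenic regions, and with GENCODE models it was 16.5 in gene bodies, 2.24 at gene starts, 3.11 downstream and 2.14 in intergenic regions. With RNA of 60–65 µm oocytes it was 1.70 under 0.1 RPKM and 24.2 at 10 RPKM or more. Leaving out an RNA library gave 755 to 1477 genes that rose and 564 to 1310 that fell. The letters A and B are the only link between libraries of different classes: the A minus B differences of the classes correlated with r = 0.0213 over 5527 regions, and -0.0271 for RNA, so the letters were not taken as pairs, and the replicate block (3851 gained and 9 lost; RNA 2464 rose and 2398 fell) is only an alternative. Of 20 named gains, all lost their call without 60–65 µm B, at gains of 52.5 to 86.3 points, and 5 (Gm13090, Eif4ebp3, Dyrk1b, AW555464 and Gm5611) also without 60–65 µm A. The 5 named losses were not called without the minimum, and 2 of them (Slc1a5 and 4930408O17Rik) not with the block. Few regions had methylation to lose, RRBS samples CpG-rich sequence only, and 2 libraries a class set the precision.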

Other observations

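In regions measured in both 50–55 µm RRBS libraries and by PBAT, gene starts averaged 3.97% in PBAT against 1.28% in RRBS at 60–65 µm (16002 regions), and gene bodies 19.9% against 15.7% (6592 regions). Regions that were at least 50% repeat-masked (712) averaged 35.7% and 41.9% in the 50–55 µm libraries, 39.6% in PBAT and 39.7% in RRBS at 60–65 µm.

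Intergenic regions within 5 kb of a gene (528) averaged 1.40% and 1.28% at 40–45 µm and 2.43% and 2.53% at 60–65 µm, and those over 100 kb from a gene (936) 17.4% and 17.9%, then 21% and 21.4%. The far regions had a median of 30.1% repeat-masked sequence, against 8.4% for the near ones.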
